A study of Mus musculus with 8 samples.

Results

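The oxidative phosphorylation genes were described in endothelial cells (EC) sorted from healthy and infarcted mouse hearts. Members were chosen by a rule on gene symbols that uses no measured value, though earlier results of these data were known when it was set. They were the nuclear genes whose symbol starts with Nduf, Uqcr or Atp5, or with Cox followed by a digit from 4 to 8, together with Sdha, Sdhb, Sdhc and Sdhd, but without Ndufa4l2. This gave 89 nuclear genes, and the 13 protein-coding genes of the mitochondrial genome (symbols starting mt-) were kept as a separate set, so that 102 of the 16791 genes in the count table were members. The nuclear members fell into 37 genes of complex I, 7 assembly factors of complex I (Ndufaf), 4 genes of complex II, 8 of complex III, 16 of complex IV and 17 of complex V.

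Oxidative phosphorylation takes place at the inner mitochondrial membrane. Complexes I and II pass electrons from NADH and succinate to ubiquinone, complex III passes them to cytochrome c, complex IV passes them to oxygen, and complex V, the ATP synthase, uses the proton gradient built by complexes I, III and IV to make ATP. Most subunits are encoded in the nucleus and imported, and a small core of complexes I, III, IV and V is encoded by the mitochondrial genome. Endothelial cells are known to make much of their ATP by glycolysis, and several complex IV subunits exist as isoforms that differ between tissues.

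The samples were single-cell libraries, 1 per mouse, made with 10X Chromium 3' chemistry, in which each transcript is counted once by a unique molecular identifier (UMI). All mice carried Pdgfb-iCreERT2 and the R26R-Brainbow2.1 (Confetti) reporter, each on 1 allele, with males and females mixed, were 8 to 10 weeks old and received tamoxifen at 150 mg/kg. The Healthy group (mice 227, 228, 239 and 240) had no surgery and was harvested 21 days after tamoxifen. The MI group (mice 244, 250, 255 and 256) had the left anterior descending coronary artery ligated 14 days after tamoxifen and was harvested 7 days later. Cells were sorted as CD31+, podoplanin- and Confetti+, so the sort aimed at cells in which the Pdgfb-driven Cre had recombined the reporter.

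Of the 31028 deposited cells, 2333 were copies of cells in another healthy mouse (the same barcode and at least 90% of UMIs matched). Copies made up 301 cells of Healthy 227, 2 of Healthy 239 and 2030 cells, or 55.3%, of Healthy 228. In each pair the record with fewer UMIs was taken as the copy, with medians of 1040.5 UMIs in Healthy 228 and 2541.5 in Healthy 239 for the 2030 pairs, and 975 in Healthy 227 and 5147 in Healthy 228 for the 301. The mouse from which these cells came is not given by the table, and this bears on the values of Healthy 227, 228 and 239. These copies and 2084 cells with markers of other cell types were left out, which left 10665 healthy and 15946 MI endothelial cells. Endothelial UMIs ranged from 4812468 to 7572194 per healthy mouse and from 14238603 to 23498686 per MI mouse, and the median per cell from 1866 to 2754 and from 3402 to 4675 UMIs. The pan-endothelial markers Pecam1, Kdr, Cdh5, Tie1, Egfl7 and Emcn summed to 5212 to 5567 in healthy and 5014 to 5178 in MI mice, as counts per 1000000 UMIs (CPM), and the 14 haematopoietic markers (7 of 13 tested called higher after MI) to 25.2 to 166 and 281 to 491 CPM. The part of the haematopoietic transcripts in the results was not tested.

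Levels are given as CPM of each mouse, in the order 227, 228, 239, 240 for healthy and 244, 250, 255, 256 for MI mice. Log2 fold changes (MI against healthy) and adjusted p-values come from edgeR's quasi-likelihood test on UMIs summed per mouse, with TMM scaling and Benjamini-Hochberg adjustment over all genes tested, and a gene was called at an adjusted p under 0.05. CPM are not TMM-scaled, so a fold change can differ a little from the ratio of the CPM.

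The nuclear members took a larger share of UMIs after MI. Their sum was 2.17, 2.20, 2.24 and 2.21% of UMIs in the healthy mice and 2.50, 2.44, 2.44 and 2.40% in the MI mice. The groups did not overlap. More cells rich in these transcripts and more of the transcripts per cell cannot be told apart in such sums. The mt- genes behaved otherwise, with 2.55, 3.80, 3.46 and 4.17% of UMIs in healthy and 2.63, 2.54, 2.64 and 3.89% in MI mice. Here the groups overlapped, since Healthy 227 lay within the MI range and MI 256 within the healthy range. Sums over members were not tested. Marker levels differed between the groups too. The 8 capillary markers, all called lower after MI, summed to 25319.5 to 31238 CPM in healthy and 16471 to 22709 CPM in MI mice. The 8 cell cycle markers, all called higher, summed to 173 to 251 and 579 to 866 CPM. Of the 4 Plvap-high markers 3 were called higher and 0 lower, with sums of 177 to 291 and 768 to 2111 CPM. The part of such cells in the member sums was not tested.

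By complex, the sums of complexes I, III, IV and V were higher in every MI mouse than in every healthy mouse. These shares are not TMM-scaled. Over all genes tested the median log2 fold change was 0.07 without TMM scaling and -0.02 with it. With TMM scaling, the median over the genes of complex I was 0.01. Complex V took 0.553, 0.567, 0.582 and 0.569% of UMIs in healthy mice and 0.679, 0.662, 0.654 and 0.636% in MI mice. Complex III took 0.234, 0.236, 0.246 and 0.243%, and then 0.280, 0.278, 0.280 and 0.269%. Complex IV lay at 0.577 to 0.593% in healthy and 0.634 to 0.655% in MI mice, and complex I at 0.750 to 0.759% and 0.784 to 0.816%. Complex II overlapped, at 0.0371 to 0.0437% against 0.0434 to 0.0528%, because MI 256 lay just below Healthy 239. The 7 assembly factors of complex I lay the other way, with every MI mouse (0.01861 to 0.01998%) below every healthy mouse (0.02005 to 0.02271%), though by little between Healthy 227 and MI 250.

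**Figure D1:**
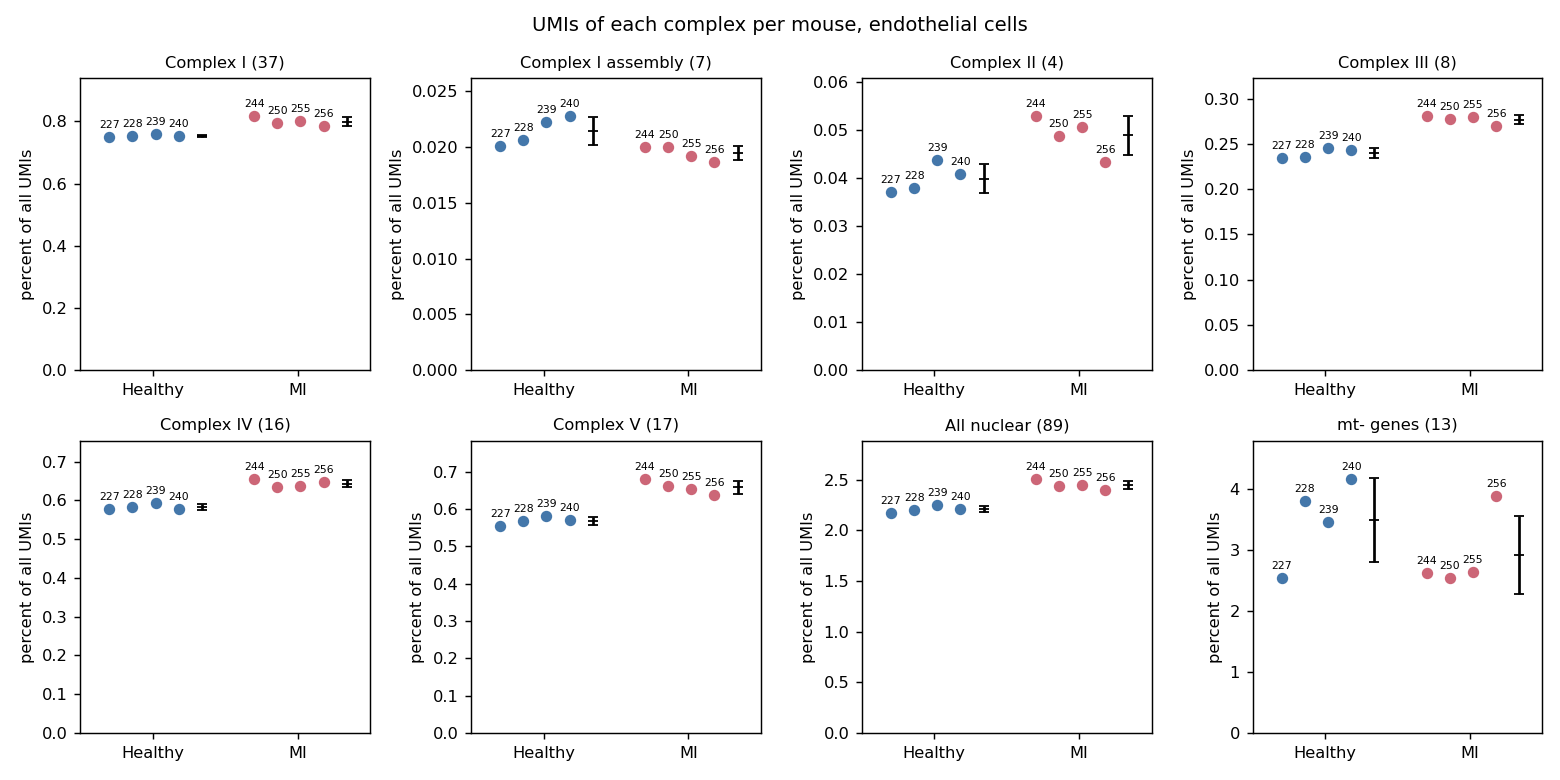
Percent of all endothelial UMIs on the genes of each complex (y axis, from 0) in each healthy (blue) and MI (red) mouse. Points are mice with their numbers and the black mark is the mean with SD (n = 4). All nuclear members together lay at 2.17 to 2.24% in healthy and 2.40 to 2.50% in MI mice, while the mt- genes overlapped.

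Gene by gene, all 102 members were tested among 12270 genes. Of the 89 nuclear members, 18 were called higher after MI and 7 lower, where 18.7% of all genes tested were called higher and 18.8% lower (37.4% either way). The share of members called higher was thus close to that of all genes, and fewer were called lower. The median log2 fold change was 0.07 over the nuclear members and -0.02 over all genes tested. In 34 nuclear members the CPM of all 4 MI mice exceeded those of all 4 healthy mice, and in 4 they were all below, against 23.2% and 12.4% of all genes tested. Without TMM scaling 34 members were called higher and 4 lower, where 24.1% and 14.1% of all genes were, with medians of 0.16 over the members and 0.07 over all genes. With each cell thinned to 1000 UMIs 8 were called higher and 3 lower, where 12.5% and 12.4% of 10637 genes were. With the copied cells kept, 18 nuclear members were called higher and 6 lower, with a median of 0.04, and 6 mt- genes were called lower. With both records of each pair left out, an alternative added after the first results were seen, 20 were called higher and 7 lower, with a median of 0.09, and again 6 mt- genes lower. Leaving out MI 244 or MI 255 left 10 called higher in each case, where 1684 of 11957 and 1690 of 11937 genes were. The lower calls fell to 3 without Healthy 227, MI 244 or MI 255 and to 4 without Healthy 228, Healthy 239 or MI 250. Over all genes, the lower calls in these fits were 1567 (without MI 244) to 2182 (without Healthy 239), against 2301 with all mice.

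**Figure D2:**
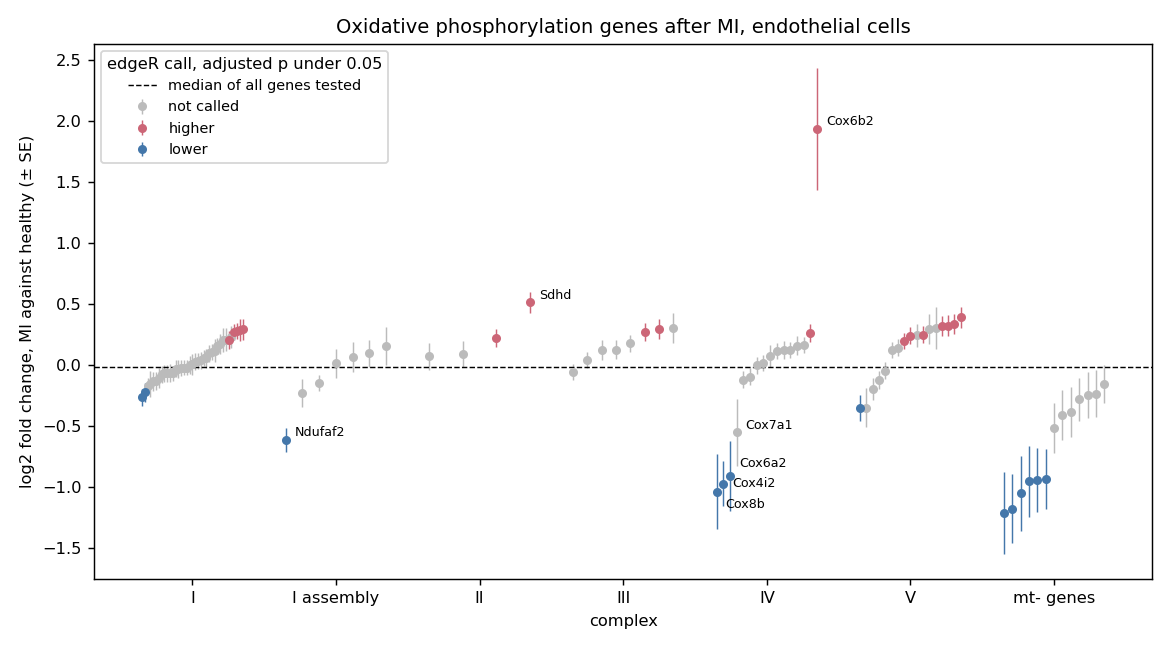
Log2 fold change of each member in endothelial cells, MI against healthy (y axis, ± SE from edgeR), grouped by complex along the x axis and ordered by value within it. Red points were called higher, blue lower and grey not called, and the dashed line is the median of all genes tested (-0.02). Most members lie within 0.5 of 0, with Cox6b2 at 1.93 and the muscle isoform Cox8b at -1.04.

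Complex I, the NADH dehydrogenase, had 5 of 37 genes called higher (Ndufa8, Ndufb5, Ndufa12, Ndufv2 and Ndufs8) and 2 lower (Ndufa4 and Ndufa3), with a median log2 fold change of 0.01. Among the 7 nuclear core subunits, which hold the redox centres, 2 were called higher and 0 lower (Ndufs8 and Ndufv2, both of which bind an iron-sulfur cluster), with a median of 0.12. Among the 30 other subunits 3 were called higher and 2 lower, with a median of -0.02. Ndufa8, an accessory subunit, was at 352, 319.6, 276 and 289.8 CPM in healthy and 412, 389, 423 and 380.1 CPM in MI mice. Its log2 fold change was 0.29 (SE 0.09, edgeR adjusted p = 0.030), and the groups did not overlap. Ndufa12, another accessory subunit, had the same estimate of 0.29 (SE 0.08, edgeR adjusted p = 0.022). Ndufa8 was not called without Healthy 239, Healthy 240, MI 244, MI 250 or MI 255 (0.23 to 0.31), Ndufa12 without Healthy 227, MI 244, MI 250 or MI 255 (0.25 to 0.29), and Ndufa3 without any 1 mouse other than MI 256 (-0.24 to -0.19). With thinned cells none of these genes was called (0.27, 0.24 and -0.27). Ndufa8 was also not called with all deposited cells (0.26) or without cells with cardiomyocyte UMIs (0.24). Ndufa3 lost its call in further settings, such as without TMM scaling (-0.14).

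Ndufa4 was first assigned to complex I and is now known as a subunit of complex IV. It was at 549, 589.9, 615 and 615 CPM in healthy and 547, 519.7, 521 and 505 CPM in MI mice, a log2 fold change of -0.27 (SE 0.07, edgeR adjusted p = 0.017). The groups were apart, though by little between Healthy 227 and MI 244. Without TMM scaling its log2 fold change was -0.18 and was not called.

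Of the 7 complex I assembly factors, 1 was called lower and 0 higher. Ndufaf2, a chaperone of late complex I assembly, fell from 54.9, 68.8, 62.9 and 70.8 CPM in healthy mice to 43.8, 47.7, 42.5 and 44.5 CPM in MI mice. The log2 fold change was -0.61 (SE 0.10, edgeR adjusted p = 0.0015), and the groups did not overlap. Ndufaf3, another assembly factor, was at 54.4 to 58.9 CPM in healthy and 52.8 to 57.2 CPM in MI mice and was not called.

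Complex II, succinate dehydrogenase, is the 1 complex with no mitochondrially encoded subunit and also works in the citric acid cycle. Of its 4 genes, 2 were called higher. Sdhd, a membrane anchor of the complex, was at 65.0, 65.0, 70.4 and 60.9 CPM in healthy and 111, 93.5, 105 and 87.5 CPM in MI mice. This was a log2 fold change of 0.51 (SE 0.09, edgeR adjusted p = 0.0021), and the lowest MI mouse lay well above the highest healthy mouse. Sdhb, the iron-sulfur subunit, was at 144, 138, 148 and 138 CPM and then 188, 173, 183 and 157 CPM (log2 fold change 0.22, SE 0.07, edgeR adjusted p = 0.038). It lost its call whenever any mouse other than MI 256 was left out and with the copied cells kept (0.19). The call was also lost with cells of at least 800 genes (0.20) and with Xist, a check of sex, as a covariate (0.22). The flavoprotein Sdha (99.8 to 136 CPM in healthy, 118 to 145 CPM in MI mice) and the other anchor Sdhc (59.6 to 82.8 and 71.2 to 84.4 CPM) overlapped between groups, with log2 fold changes of 0.07 and 0.09 that were not called.

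Complex III, the cytochrome bc1 complex, had 2 of 8 genes called higher and 0 lower, with a median of 0.15. The Rieske iron-sulfur protein Uqcrfs1 was at 104, 98.3, 119.9 and 107 CPM in healthy and 143, 137, 152 and 127 CPM in MI mice. Its log2 fold change was 0.29 (SE 0.08, edgeR adjusted p = 0.017), the groups were apart, and without MI 255 it was 0.26 and not called. The small subunit Uqcrq had a log2 fold change of 0.27 (SE 0.07, edgeR adjusted p = 0.016). With thinned cells neither Uqcrfs1 (0.25) nor Uqcrq (0.19) was called. The hinge protein Uqcrh (402 to 455 CPM in healthy, 457 to 527 CPM in MI mice) and Uqcrb (598 to 618 and 624 to 704 CPM) were also apart in CPM, but their estimates of 0.12 and 0.04 were not called.

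Complex V had 7 of 17 genes called higher and 1 lower, with a median log2 fold change of 0.24. The 17 were taken by their prefix and hold Atp5s and Atp5sl, which RefSeq names Dmac2l and Dmac2. Dmac2 is known as an assembly factor of complex I and not as a subunit of the ATP synthase, and neither gene was called (0.30 and -0.35). Atp5f1, subunit b of the peripheral stalk, was at 192, 198, 224 and 209 CPM in healthy and 304, 278, 308 and 254 CPM in MI mice. Its log2 fold change was 0.39 (SE 0.08, edgeR adjusted p = 0.0058), with the lowest MI mouse above the highest healthy one. The others called higher were Atp5c1 and Atp5d of the central stalk, Atp5o of the peripheral stalk, Atp5l, and Atp5g1 and Atp5g2, with estimates from 0.20 to 0.33.

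The genes Atp5g1, Atp5g2 and Atp5g3 encode the same mature subunit c of the membrane ring and differ in their import sequences. Atp5g1 was at 211, 207, 232 and 224 CPM in healthy and 332, 272, 294 and 263 CPM in MI mice (log2 fold change 0.32, SE 0.09, edgeR adjusted p = 0.017). Atp5g2 was at 316, 327, 283 and 278 CPM and then 415, 404, 402 and 391 CPM (0.33, SE 0.08, edgeR adjusted p = 0.0099). Atp5g3 went the other way in its estimate, with 195, 205, 193 and 170.1 CPM in healthy and 181, 167, 168 and 190.3 CPM in MI mice (-0.20, SE 0.09, edgeR adjusted p = 0.10), but its groups overlapped and it was not called. The difference between the 3 genes was not tested.

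The catalytic subunits Atp5a1 and Atp5b had log2 fold changes of 0.24 and 0.30 that were not called. Atp5k, subunit e at the dimer interface, was the 1 gene of the complex called lower, at 275, 294, 240.4 and 267 CPM in healthy and 215, 244, 191 and 244 CPM in MI mice (-0.35, SE 0.11, edgeR adjusted p = 0.029). Its groups overlapped between Healthy 239 and MI 250 and 256, and without TMM scaling, with copied cells kept, with thinned cells, or without Healthy 227, Healthy 228, Healthy 240, MI 244 or MI 255 it was not called (-0.36 to -0.24).

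To show what sequence the members share before their start sites, the 250 bases upstream of each gene's start were searched in RefSeq (GRCm38.p6) for the letters GCGCA, then any base, then GCGC, known as the motif of nuclear respiratory factor 1, a known activator of respiratory chain genes, on both strands. A window was found for 75 of the 89 nuclear members, 3 of them under a newer symbol than that of the count table. The letters were present in 13 of the 75 windows (17.3%), against 3.86% of all 27025 windows of the same length. They were in 3 of 17 windows of members called higher, 1 of 5 of members called lower and 9 of 53 of members not called. The letters CCGGAAG, known from the factor GABPA, were in 12 of the 75 windows (16.0%) and in 7.05% of all windows. Among the members printed below, Sdhd had 1 window match to CCGGAAG and the others 0.

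The stretches of the 4 called members with this motif are shown with 10 bases on each side and the letters in capitals, on the minus strand, which is the strand of each gene. For Ndufa8 the searched letters read on the opposite strand, so the capitals show their reverse complement. They lie at chr2:36049349-36049378 for Ndufa8, chr9:50603909-50603938 for Sdhd, chr15:102671070-102671099 for Atp5g2 and chr5:108434430-108434459 for Atp5k (GRCm38.p6), with the letters starting 30, 79, 42 and 50 bases before the start. In GENCODE M21 these letters overlap annotated exons, for Sdhd an exon of its neighbour Timm8b. Ndufa8, Sdhd and Atp5g2 were called higher and Atp5k lower.
Ndufa8: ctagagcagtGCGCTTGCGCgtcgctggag
Sdhd: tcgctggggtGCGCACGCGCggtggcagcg
Atp5g2: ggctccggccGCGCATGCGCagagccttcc
Atp5k: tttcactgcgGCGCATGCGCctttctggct

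Complex IV, cytochrome c oxidase, had 2 of 16 genes called higher (Cox7b and Cox6b2) and 3 lower (Cox4i2, Cox6a2 and Cox8b), with a median of 0.05. The broadly expressed genes moved little. Cox4i1, the main form of subunit 4, was at 834, 880.4, 954 and 897 CPM in healthy and 1026, 1027, 1003 and 1056 CPM in MI mice. The groups were apart, but the log2 fold change of 0.12 (SE 0.07, edgeR adjusted p = 0.21) was not called. Of the other broad forms, Cox6a1, Cox6b1, Cox7a2, Cox7a2l and Cox8a had estimates from -0.12 to 0.12 and were not called. Cox6b1 and Cox8a were called higher with DESeq2 (0.13 each), and Cox4i1, Cox6b1 and Cox8a without TMM scaling (0.20 to 0.21). Cox7b rose with a log2 fold change of 0.26 (SE 0.07, edgeR adjusted p = 0.021). It was not called without Healthy 239, Healthy 240 or MI 244 (0.23 to 0.24) or with thinned cells (0.20).

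Cox4i2, the form of subunit 4 known from lung and from cells at low oxygen, was at 39.5, 44.9, 44.9 and 52.4 CPM in healthy and 21.4, 23.2, 19.3 and 34.6 CPM in MI mice. The log2 fold change was -0.97 (SE 0.18, edgeR adjusted p = 0.0034), and all MI mice were below all healthy mice. Cox4i2 is also abundant in mural cells. The 8 pericyte markers (2 of 7 tested called higher, 1 lower) summed to 42.9 to 104 CPM in healthy and 38.6 to 61.7 CPM in MI endothelial cells, and the pericyte marker Rgs5 was at 62.6 and 28.2 CPM over all healthy and MI cells. In capillary-like cells without any UMI of a mural marker or of Ndufa4l2, Cox4i2 was at 29.5, 28.4, 31.1 and 35.9 CPM in healthy and 20.2, 19.0, 17.9 and 26.5 CPM in MI mice, and the groups did not overlap. A cell without such UMIs can still hold mural RNA at this depth, and the part of mural RNA in the difference was not tested.

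The heart and skeletal muscle isoforms were at low levels. Cox6a2 was at 8.46, 8.10, 7.79 and 4.13 CPM in healthy and 3.41, 3.02, 3.76 and 5.90 CPM in MI mice (log2 fold change -0.91, SE 0.28, edgeR adjusted p = 0.030). Cox8b was at 5.31, 5.19, 5.68 and 3.73 CPM and then 2.09, 2.43, 1.67 and 4.21 CPM (-1.04, SE 0.31, edgeR adjusted p = 0.024). For both the groups overlapped through Healthy 240 and MI 256, and leaving out any other mouse ended both calls (Cox6a2 -0.87 to -0.79, Cox8b -1.01 to -0.87). Cox7a1, the third muscle form, had an estimate of -0.55 that was not called (edgeR adjusted p = 0.14). It was called without MI 256 (-0.77, edgeR adjusted p = 0.037), and without Healthy 228 the estimate was -0.33.

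Transcripts of cardiomyocytes were present throughout, with 14 markers (1 of 13 tested called higher, 2 lower) summing to 264 to 352 CPM in healthy and 261 to 336 CPM in MI mice. A set of 12 healthy and 13 MI cells with many of these transcripts held Cox6a2 at 2007 and 244 CPM and Cox8b at 1338 and 122 CPM. Without these cells neither gene was called (-0.62 and -0.77), and 18 nuclear members were called higher and 5 lower. Both were also not called without cells that held 2 or more cardiomyocyte UMIs (-0.61 and -0.73). With thinned cells the estimate of Cox6a2 shrank to -0.18 (edgeR adjusted p = 0.78) and that of Cox8b was -0.88, and neither was called.

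Cox6b2, a form of subunit 6b known from testis, rested on 30 UMIs in the healthy and 400 in the MI mice. It was at 0.83, 0.42, 1.98 and 1.07 CPM in healthy and 3.37, 6.34, 6.73 and 1.90 CPM in MI mice (log2 fold change 1.93, SE 0.50, edgeR adjusted p = 0.014). MI 256 lay just below Healthy 239, and limma-voom, an alternative test, did not call the gene.

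Of the 13 mt- genes, 6 were called lower after MI and 0 higher, with a median log2 fold change of -0.51. They were mt-Nd2, mt-Nd3, mt-Nd4l, mt-Nd5 and mt-Nd6, which encode subunits of complex I, and mt-Atp8 of complex V. These 6 genes held 4.35% (MI 255) to 9.93% (Healthy 228) of the mt- UMIs of a mouse. Over the 13 mt- genes, the higher the level, the less negative was the log2 fold change (Spearman rho = 0.91). The complex I genes mt-Nd1 and mt-Nd4 were not called. mt-Nd3 was at 467, 663, 570.0 and 745 CPM in healthy and 221, 271, 179 and 472 CPM in MI mice (log2 fold change -1.18, SE 0.28, edgeR adjusted p = 0.010). mt-Nd2 was at 1207, 1887, 1281 and 1661 CPM and then 697, 726, 632 and 1291 CPM (-0.93, SE 0.24, edgeR adjusted p = 0.014). In both, 3 MI mice lay far below the healthy mice and MI 256 lay within their range. These estimates rest on UMIs summed per mouse. The median over cells of the mt- share of each cell was 1.90, 2.58, 2.44 and 2.94% in healthy and 2.35, 2.18, 2.33 and 3.19% in MI mice. Its mean was 2.47 ± 0.43% (SD, n = 4) in healthy and 2.51 ± 0.46% (SD, n = 4) in MI mice, so that no fall was seen in this measure.

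mt-Nd4l was at 376, 502, 181 and 164 CPM in healthy and 173, 110.2, 127 and 150.3 CPM in MI mice (-1.21, SE 0.34, edgeR adjusted p = 0.020). Healthy 227 and 228 were more than 2 times as high as Healthy 239 and 240, and the latter lay close to the MI mice. mt-Nd5 (-0.94, SE 0.26), mt-Nd6 (-1.05, SE 0.31) and mt-Atp8 (-0.95, SE 0.29) had edgeR adjusted p of 0.020, 0.023 and 0.028. In none of the 13 mt- genes were the 2 groups apart in CPM.

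The other 7 mt- genes were not called, with estimates from -0.51 for mt-Nd4 (edgeR adjusted p = 0.070) to -0.15 for mt-Atp6 (edgeR adjusted p = 0.46). All 3 mitochondrial complex IV subunits and mt-Cytb of complex III were among them. mt-Co1, the catalytic subunit of complex IV, was at 3129, 4906, 4249.8 and 4943 CPM in healthy and 3215, 3416, 3567 and 5331 CPM in MI mice.

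The number of mt- genes called depended on the mice and the cells used. It was 10 without MI 256 (median -0.73), 3 without MI 244 and 2 without MI 250 or MI 255. Among healthy mice, mt-Atp8 lost its call without Healthy 227 or Healthy 228 and mt-Nd6 without Healthy 228 or Healthy 240. With thinned cells 4 were called, and the median was -0.33. With cells of at most 10% mitochondrial UMIs 6 were still called, and the median was -0.23. In MI 256, 4.96% of cells were above that limit, against 0.942 to 1.56% in the other MI mice and 2.59 to 7.22% in the healthy mice. The sum of 7 transcripts known to rise during tissue dissociation (Fos, Jun, Egr1, Hspa1a, Hspa1b, Atf3 and Junb) was 4507 to 7639 CPM in healthy and 4571 to 6513 CPM in MI mice. The part of either in the mt- differences was not tested.

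Some mt- genes overlap, and then reads cannot always be assigned to 1 gene. In GENCODE M21 mt-Atp8 (chrM:7766-7969) shares 43 bases with mt-Atp6 (chrM:7927-8607), mt-Nd4l (chrM:9877-10173) shares 7 with mt-Nd4 (chrM:10167-11544), and mt-Nd5 (chrM:11742-13565) shares 14 with mt-Nd6 (chrM:13552-14070), which is on the other strand. mt-Atp8 and mt-Nd4l, the upstream genes of 2 shared transcripts, had estimates of -0.95 and -1.21, and their downstream partners mt-Atp6 and mt-Nd4 of -0.15 and -0.51.

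**Figure D3:**
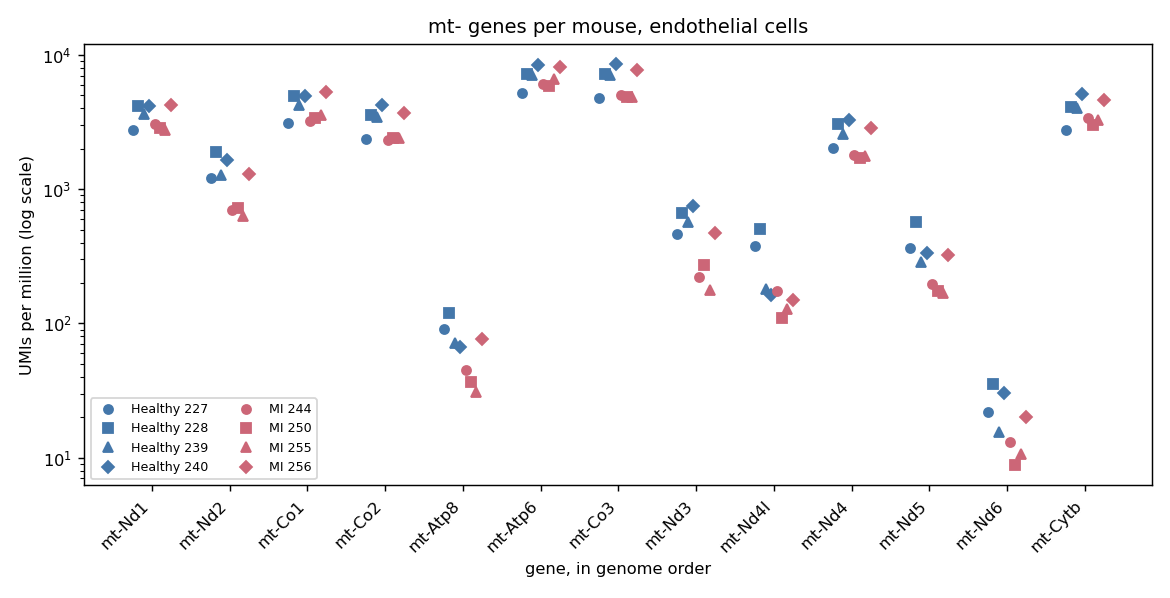
CPM of each mt- gene (y axis, log scale) in genome order (x axis), with 1 symbol per mouse in blue for healthy and red for MI. MI 256 (red diamonds) lies apart from the other MI mice in most genes, as in mt-Nd2 at 1291 against 632 to 726 CPM.

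To compare like cells, EC were put in classes by the share of UMIs on marker genes, none of which is a member. A class needed at least 40 marker UMIs per 10000 and at least 4 UMIs, and capillary-like cells needed at least 150 capillary marker UMIs per 10000 and no other class. Such a class is a range of a score and not a sharp type: 8.04% of healthy and 13.4% of MI capillary-like cells lay within 25% above the limit, as did 36.6 and 25.8% of arterial-like and 49.7 and 54.6% of sprouting-like cells. The median of capillary marker UMIs per 10000 was 305 and 268 in healthy and MI capillary-like, 116 in both groups of arterial-like, and 192 and 172 in sprouting-like cells. No doublet caller was run.

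Capillary-like cells, 8174 healthy and 9074 MI, gave much the same picture as all EC. Of the 89 nuclear members 18 were called higher and 2 lower after MI, where 16.9% of 11499 genes tested were called higher and 16.7% lower (33.5% either way). Sdhd had a log2 fold change of 0.60 (SE 0.09, edgeR adjusted p = 0.0014) and Atp5f1 of 0.39 (SE 0.09, edgeR adjusted p = 0.0070). Atp5a1 and Atp5b, the catalytic subunits of the ATP synthase, were called here, at 0.27 and 0.33. The members called lower were Cox4i2 (-0.76, SE 0.14, edgeR adjusted p = 0.0033) and Ndufaf2 (-0.60, SE 0.11, edgeR adjusted p = 0.0025), while Cox6a2, Cox8b, Atp5k, Ndufa4 and Ndufa3 were not called. The 6 mt- genes called lower were those called over all EC. Without MI 244, MI 250 or MI 255 there were 8, 9 and 9 members called higher and 2 mt- genes called in each case. Over all genes, 1357 of 11410, 1412 of 11407 and 1377 of 11390 were called higher in these fits. With thinned cells 5 members were called higher and 1 lower, where 866 and 919 of 9638 genes were. Without MI 256, 5 members were called lower and 11 mt- genes were called, and without Healthy 228, 3 mt- genes were called.

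In arterial-like cells, 651 healthy and 975 MI, 83 nuclear members could be tested. Ndufa8 was called higher (0.45) and 0 were called lower, against 4.02% and 4.88% of 7742 genes tested (8.9% either way), and 13 of the 83 were at an unadjusted p under 0.05 in edgeR. DESeq2, copied cells kept or left out of both mice, a stricter class rule, thinned cells and the removal of any 1 mouse other than MI 256 each gave 0 nuclear calls. Over all genes these fits called from 106 higher and 169 lower (thinned cells) to 370 and 421 (copied cells kept). mt-Atp8 was the 1 mt- gene called lower (-1.10), and the median over the 13 was -0.22, while 5 were called without MI 256 and 3 with copied cells left out of both mice. The nuclear sum was nonetheless 2.09, 2.21, 2.24 and 2.19% of UMIs in healthy and 2.43, 2.43, 2.41 and 2.35% in MI mice, without overlap. These shares are not TMM-scaled either.

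The change of the mt- genes after MI differed between classes. The test of the difference itself (an interaction of group and class in edgeR, with mouse as a block) called 10 of 13 mt- genes as less lowered or more raised in arterial-like than in capillary-like cells and 0 the other way, with a median of 0.39 against 0.06 over all 11269 genes tested, of which 1.24% were called higher and 0.577% lower. In capillary-like cells the mt- genes took 2.59, 3.85, 3.60 and 4.31% of UMIs in healthy and 2.54, 2.47, 2.40 and 3.96% in MI mice. In arterial-like cells they took 2.42, 3.37, 2.98 and 3.32% and then 2.61, 2.73, 2.57 and 3.77%. The median share per cell, pooled over mice, did not show this difference, at 2.48 and 2.39% in healthy and MI capillary-like and 2.60 and 2.45% in arterial-like cells. The number of calls was 1 without Healthy 240, 6 without MI 244 or MI 250, 2 with thinned cells, 9 with the copied cells kept and 7 with them left out of both mice. No nuclear member was called by this test in edgeR, and 2 were at an unadjusted p under 0.05.

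The same test for sprouting-like cells, added after the first results were seen, called 11 mt- genes higher and 0 lower, with a median of 0.72 against 0.17 over all 11434 genes tested (1.16% called higher and 0.682% lower). Sprouting-like cells had 3.18, 2.91 and 3.81% of UMIs on mt- genes in Healthy 227, 239 and 240, and 3.28, 4.14, 3.73 and 4.90% in the MI mice. Healthy 228 had too few of these cells (14) to be used. The fit held 34, 72 and 41 sprouting-like cells in Healthy 227, 239 and 240. In the MI mice it held 212, 168, 123 and 105. The largest estimate was that of mt-Nd5, at 1.28 (SE 0.19, edgeR adjusted p = 2.8e-09), and mt-Co1 was at 0.77 (SE 0.11, edgeR adjusted p = 5.4e-10). With thinned cells 10 were called, with the copied cells kept 11 and left out of both mice 10, and leaving out 1 mouse gave 9 to 11. No nuclear member was called in edgeR, and 4 were at an unadjusted p under 0.05. The dissociation transcripts summed to 4340 to 7518 CPM in healthy and 5005 to 7079 CPM in MI capillary-like cells, and to 6503 to 9400 and 4817 to 7559 CPM in arterial-like cells, and their part in these differences was not tested. Of these 7 transcripts 1 was called higher and 0 lower after MI in capillary-like cells, and 0 higher and 3 lower in arterial-like cells. As medians over cells per 10000 UMIs, they were at 8.64 and 15.7 in healthy and MI sprouting-like, 19.9 and 36.98 in capillary-like and 39.3 and 40.05 in arterial-like cells.

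**Figure D4:**
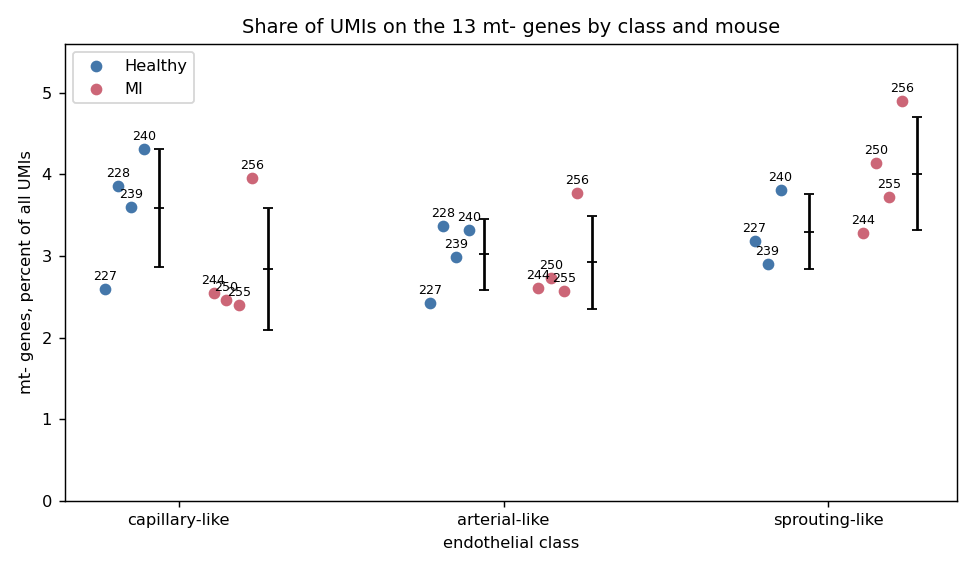
Percent of UMIs on the 13 mt- genes (y axis, from 0) in capillary-like, arterial-like and sprouting-like cells of each mouse, healthy in blue and MI in red. Points are mice and the black mark is the mean with SD (n = 4, but 3 healthy mice for sprouting-like). In capillary-like cells 3 of the MI mice lie below all healthy mice, and in sprouting-like cells 3 of the MI mice lie at or above 3.73%, near or above the highest healthy mouse.

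Between classes, each class was compared with the capillary-like cells of the same mice (mouse as a block, both groups in 1 fit, mice with at least 20 cells of the class). In arterial-like cells 1 nuclear member was called higher and 20 lower, where 14.6% and 16.2% of 11269 genes were. Ndufa8 had a log2 difference of -0.86 (SE 0.06, edgeR adjusted p = 3.1e-14), Ndufaf2 of -0.40 (SE 0.09) and Ndufs8 of -0.37 (SE 0.07). Of the mt- genes 6 were lower in arterial-like cells and 0 higher, and 3 were called without Healthy 228. Within each group apart, 8 mt- genes were called lower in healthy mice (9.23% of genes higher and 8.34% lower) and 0 in MI mice, where 2 were called higher (14.4% and 13.9%).

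Cox4i2 was the member higher in arterial-like cells, by 2.49 on the log2 scale (SE 0.10, edgeR adjusted p = 5.8e-21), and by 2.33 in healthy and 2.62 in MI mice when fitted apart. Its mean level was 176 ± 52.4 CPM (SD, n = 4) in healthy arterial-like and 34.2 ± 2.63 CPM (SD, n = 4) in healthy capillary-like cells, and 132 ± 38.9 and 21.3 ± 4.23 CPM (SD, n = 4) in MI mice. In arterial-like cells without mural UMIs it was at 135, 112, 154 and 267 CPM in healthy and 131, 194, 92.1 and 162 CPM in MI mice, above every capillary-like value. The pericyte markers were at 118 and 62.1 CPM in healthy and MI arterial-like and at 70.8 and 46.6 CPM in capillary-like cells, and the part of mural RNA in this difference was not tested either. Ndufa4l2, a relative of Ndufa4 that marks mural cells, was at 12.6 and 8.39 CPM in healthy and MI arterial-like cells and at 1334 and 1245 CPM in pericyte-like cells.

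Among the mural and the named endothelial classes, in order of level over healthy and MI cells, Cox4i2 stood at 1065 and 1022 CPM in pericyte-like, 855 and 828 CPM in smooth muscle-like, 174 and 128 CPM in arterial-like, 55.1 and 30.8 CPM in interferon-like and 34.3 and 20.8 CPM in capillary-like cells, each pooled over mice. Endothelial cells in no class, at 67.27 and 16.95 CPM, and other cell types are not placed in this order. The ranges over mice of pericyte-like and smooth muscle-like cells overlapped, as did those of interferon-like and capillary-like cells. In 1 fit over all mice the interferon-like cells were nevertheless above the capillary-like cells by 0.67 (SE 0.12, edgeR adjusted p = 3.8e-05). Arterial markers were at 981 and 782 CPM in healthy and MI interferon-like and at 623 and 536 CPM in capillary-like cells. The part of arterial cells in this difference was not tested. Cell cycle, sprouting-like and venous-like cells were at 10.1 CPM or less in both groups, with ranges over mice that overlapped one another. Against capillary-like cells their log2 differences were -1.44, -1.39 and -1.94, and Plvap-high cells, seen almost only after MI (7 healthy and 894 MI cells), were at 3.57 CPM, with -2.45 (SE 0.23, edgeR adjusted p = 2.9e-07).

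**Figure D5:**
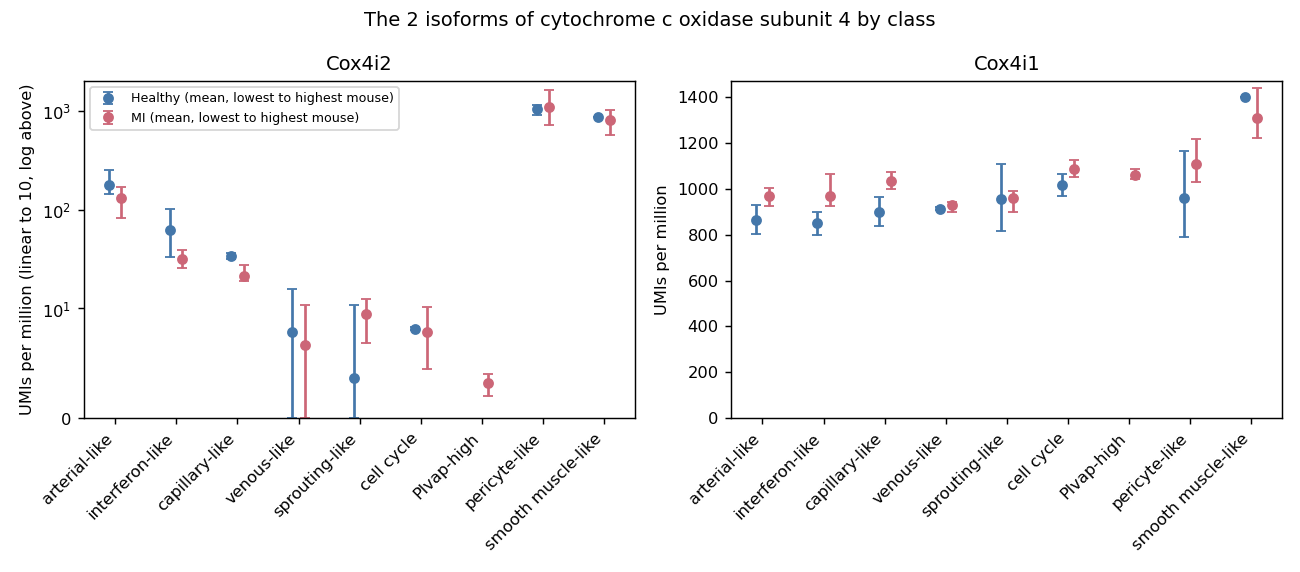
Cox4i2 (left, y axis linear to 10 and log above) and Cox4i1 (right, linear) in CPM by cell class, healthy in blue and MI in red. Points are means over mice with at least 20 cells of the class and bars run from the lowest to the highest mouse. Mean Cox4i2 in healthy mice is 1033 in pericyte-like, 176 in arterial-like and 34.2 in capillary-like cells, while Cox4i1 lies between 790.5 and 1437 in every mouse and class shown.

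In venous-like and sprouting-like cells most nuclear members were not called, and more were called lower than higher. Venous-like cells had 18 called lower and 1 higher (backgrounds 8.66% and 8.32%). The lower ones included Ndufb8 (-0.54), Atp5j (-0.53) and the catalytic subunit Atp5b (-0.47), and the higher one was Cox6b2 (2.41, SE 0.47), which rested on 22 UMIs in venous-like cells. Of the mt- genes 4 were higher there and 1 lower. Of the healthy mice only Healthy 239 (29 cells) and Healthy 240 (21 cells) were in the venous fit. Without MI 244, 11 nuclear members were called in venous-like cells, where 832 of 11251 genes were higher and 863 lower. There, 3, 2 and 3 mt- genes were called without MI 250, MI 255 and MI 256. Sprouting-like cells had 17 called lower and 0 higher (8.74% and 7.99%), among them Cox7a2l, which takes part in joining complexes III and IV (-0.48, SE 0.09), Ndufa8 (-0.46, SE 0.08), Ndufa4 (-0.45, SE 0.08) and Sdha (-0.35, SE 0.10). At the same time 3 mt- genes were higher and 0 lower, and in MI mice alone 11 were higher and 0 lower (8.42% and 7.75% of genes). In healthy mice alone the direction was the other, with 0 higher and 2 lower (2.46% and 4.07%) and a median of -0.22. With the copied cells kept 0 mt- genes were called in all mice (3 at an unadjusted p under 0.05 in edgeR), with them left out of both mice 7 were higher, and 7, 6 and 1 were called without Healthy 239, Healthy 240 and MI 250. Without MI 250 or MI 256, 10 and 11 nuclear members were called, where 694 and 742 of all genes were higher and 815 and 811 lower.

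Plvap-high cells of the MI mice were mixed, with 15 nuclear members called higher and 12 lower (15.1% and 13.9%) and 9 mt- genes higher. Cox6c was higher by 0.44 (SE 0.06), Atp5g2 by 0.34 (SE 0.07), Ndufa8 by 0.32 (SE 0.08) and Cox7a2l by 0.29 (SE 0.07). All 3 muscle isoforms were lower there, Cox6a2 by 3.46, Cox7a1 by 2.40 and Cox8b by 1.90 below capillary-like cells on the log2 scale, as was Atp5j (-0.39). The muscle isoforms were near the floor there, at 0.41, 1.10 and 0.69 CPM. In MI capillary-like cells they were at 5.04, 5.77 and 3.12 CPM. Plvap-high cells had 291 CPM of cardiomyocyte markers, and MI capillary-like cells 297 CPM. Smooth muscle markers stood at 177 CPM in Plvap-high and 12.7 CPM in MI capillary-like cells, and their part in these differences was not tested. Their median depth was 7102 UMIs per cell, against 3836 in MI capillary-like cells, and with thinned cells 2 nuclear members were called higher and 4 lower (7.87% and 7.19% of genes), with the median moving from 0.05 to -0.03. Without MI 244 or MI 250, 12 and 15 were called, and without MI 244, MI 250 or MI 255, 4, 3 and 4 mt- genes. Over all genes, 1266, 1440 and 1457 were higher and 1145, 1315 and 1199 lower without MI 244, MI 250 and MI 255.

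Cells with cell cycle markers had 12 nuclear members called higher and 20 lower (18.1% and 18.5%) and 11 of the 13 mt- genes lower, with a median of -0.40. Sdhb, Atp5b, Atp5o and Ndufv2 were among the higher ones, and Uqcr11 (-0.61), Ndufa7 (-0.48) and Ndufb2 (-0.46) among the lower ones. Their median depth was 7202 UMIs in MI mice, and with thinned cells 0 nuclear members were called higher and 13 lower (11% and 9.66% of genes) and 2 mt- genes lower. With the copied cells kept 8 were called higher and 34 lower (15.7% and 24.9%). Without MI 244, MI 250 or MI 256, 20, 20 and 19 nuclear members were called. Over all genes, 1764, 1635 and 1838 were higher and 1671, 1530 and 1692 lower in these fits. Of the healthy mice only Healthy 239 (22 cells) and Healthy 240 (20 cells) were in the cell cycle fit. Interferon-like cells had the fewest calls of the 6 classes, with 6 nuclear members called lower, of which Ndufa8 had the largest estimate (-0.23, SE 0.04), and Cox4i2 called higher (7.26% of genes higher and 3.05% lower). There 4 mt- genes were lower, 9 with the copied cells kept, 11 without Healthy 228 and 1 without Healthy 227, Healthy 239 or MI 250. Without Healthy 228, 13 nuclear members were called, and without MI 244, MI 250 or MI 255, 4, 4 and 3. Over all genes, 780 were higher and 536 lower without Healthy 228. Without MI 244, MI 250 or MI 255, 689, 727 and 650 were higher and 227, 222 and 251 lower.

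Ndufa8 was called in 5 of the 6 classes against capillary-like cells, lower in 4 and higher in Plvap-high cells.

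Other genes of the pathway were counted from lists, again over all EC and against 18.7% of genes called higher and 18.8% lower. Of 13 citric acid cycle genes 4 were called higher and 0 lower (Suclg2, a subunit of succinyl-CoA ligase, 0.55), and of 12 mitochondrial carriers and antioxidants 7 and 0 (the ADP/ATP carrier Slc25a5, 0.61). Of 77 mitochondrial ribosomal proteins 19 were higher and 2 lower, and of 94 genes taken by the prefixes Rpl and Rps, which are cytosolic ribosomal proteins but also S6 kinases (Rps6k) and Rps19bp1, 15 and 11. Of 7 electron carriers and ATP synthase parts under other symbols, 1 was higher, the ATP synthase inhibitor Atpif1, at 189, 229, 201 and 194 CPM in healthy and 377, 347, 400.3 and 304 CPM in MI mice (0.72, SE 0.10, edgeR adjusted p = 9.0e-04).

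Assembly and maturation factors had 4 of 35 called higher and 3 lower, the largest change being Cox16 (-1.36), at 11.7 to 37.3 CPM in healthy and 7.61 to 13.7 CPM in MI mice, again with Healthy 227 and 228 above Healthy 239 and 240. Regulators and genes of mitochondrial DNA expression had 0 of 12 higher and 4 lower, the largest change being the mitochondrial DNA polymerase Polg (-0.59, SE 0.19, edgeR adjusted p = 0.034). Polg was at 36.8, 35.3, 56.8 and 66.0 CPM in healthy and 30.8, 36.8, 31.8 and 38.3 CPM in MI mice, so that Healthy 227 and 228 lay within the MI range and Healthy 239 and 240 above it.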

How the data were processed

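Single-cell 3' libraries of sorted cardiac cells were made from 4 healthy and 4 MI mice. The deposited values are raw UMI counts per gene and cell, which the authors made with Cell Ranger on mm10 and filtered in Seurat 2.3 with R 3.5.2, per the labels. They left out cells under 400 genes or over 20% mitochondrial transcripts. The lowest cell in the table has 403 genes and the highest share is 19.96%.

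Copied cells and cells of other types were removed, classes were set by marker UMIs, and counts were summed per mouse and, for classes, per mouse and class with at least 20 cells. Tests were made with edgeR 4.0.16 (R 4.3.3, TMM scaling, the edgeR filter on low counts, Benjamini-Hochberg adjustment at 0.05). DESeq2 1.42.0 and limma 3.58.1 (voom) were alternatives, besides no TMM, no filter, other cell filters, thinning to 1000 UMIs, stricter classes (60 per 10000 and 6 UMIs) and leaving out each mouse. The fits were tested on simulated data. Counting and figures used Python 3.11.15.

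The members, gene lists, classes and tests were chosen with earlier results of these data known. Genes picked by rule were the 4 Sdh genes, the tissue isoforms and the mt- genes. Per complex and at a mean of at least 20 CPM, the rule added the called members with the 2 highest and 2 lowest log2 fold changes and the 2 members with the highest CPM. Several of these are given without values per mouse, and Ndufa2, which was not called, is not described above. Further members were named after their values were seen. Of the 15 listed isoforms 14 were in the table used here. Totals of 4812468 to 23498686 endothelial UMIs per mouse set the precision of each value. A UMI tags the 3' end, so levels were compared between cells and not between genes.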

Additional observations from a re-analysis of the deposited data

Results flagged for a closer look

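In 8 of 114 groups of 4 mice, 1 mouse lay far from the other 3, where chance gives about 1 in 20. In 7 of these the mouse was MI 256, which was the highest of the MI mice. Its mt- genes took 3.89% of UMIs against 2.54 to 2.64% in the others, and its median share per cell was 3.19% against 2.18 to 2.35%. By gene it was at 1291 CPM for mt-Nd2 (632 to 726 in the others), 5331 CPM for mt-Co1 (3215 to 3567), 3705 CPM for mt-Co2 (2339 to 2386), 7732 CPM for mt-Co3 (4822 to 5048) and 2844 CPM for mt-Nd4 (1714 to 1789.7). The other case was Cox6a2 in Healthy 240, the lowest of the healthy mice at 4.13 CPM against 7.79 to 8.46 CPM.

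The effect of MI on mt- genes differed between classes by the interaction test of edgeR. In arterial-like minus capillary-like cells it was 0.42 on the log2 scale for mt-Nd1, 0.49 for mt-Nd2, 0.39 for mt-Co1, 0.36 for mt-Co2, 0.42 for mt-Co3, 0.39 for mt-Nd3, 0.45 for mt-Nd4l, 0.44 for mt-Nd4, 0.55 for mt-Nd5 and 0.31 for mt-Cytb, with adjusted p from 0.00076 to 0.032. In sprouting-like minus capillary-like cells it was 0.59 for mt-Nd1, 0.71 for mt-Nd2, 0.77 for mt-Co1, 0.71 for mt-Co2, 0.63 for mt-Atp6, 0.74 for mt-Co3, 0.68 for mt-Nd3, 0.72 for mt-Nd4l, 0.84 for mt-Nd4, 1.28 for mt-Nd5 and 0.81 for mt-Cytb, with adjusted p from 2.2e-11 to 0.022 in edgeR.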

How the results depend on the processing

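Of 1043 alternative fits of 48 named genes, 933 kept their side of the threshold, 20 gained and 90 lost a call, and 5 changed sign where neither fit was called. The 933 include genes that were called in neither fit, while the 90 fall only on genes called in the main fit. No sum over a complex moved by more than the spread between mice. Mice of the healthy group were shallower, and 55.3% of the cells of Healthy 228 were left out as copies. No paired analysis was possible because the mouse numbers are not shared between healthy and MI mice. The causes of the shifts below were not tested. Nuclear members called higher in EC (18) became 34 without TMM, 8 with thinned cells and 10 to 23 with 1 mouse left out, and those called lower (7) became 4 without TMM, 3 with thinned cells, 4 without cells with cardiomyocyte UMIs and 3 to 8 with 1 mouse left out. The mt- genes called (6) became 4 with thinned cells and 2 to 10 with 1 mouse left out. Over all genes, 2292 higher and 2301 lower calls became 1684 to 2453 and 1567 to 2435 with 1 mouse left out. In capillary-like cells the higher calls (18) became 5 with thinned cells and 8 to 22 with 1 mouse left out, the lower calls (2) 4 with DESeq2, 1 with thinned cells and 2 to 5 with 1 mouse left out, and the mt- calls (6) 2 to 11. Over all genes, 1938 higher and 1919 lower calls became 866 and 919 with thinned cells. With 1 mouse left out they became 1357 to 2220 and 1277 to 2212. In arterial-like cells the nuclear calls (1) became 0 with DESeq2, with copied cells kept or left out of both mice, with strict classes and with thinned cells and 0 to 1 with 1 mouse left out, and the mt- calls (1) 2 with DESeq2, 3 with copied cells left out of both mice and 1 to 5 with 1 mouse left out.

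Against capillary-like cells, the mouse was a block in the fits of the report, and "no block" leaves it out. Calls over all genes, higher and then lower, changed with no block as well. They went from 1646 and 1822 to 889 and 769 in arterial-like and from 957 and 996 to 594 and 521 in venous-like cells. In Plvap-high cells they went from 1828 and 1684 to 1379 and 1177, in sprouting-like from 914 and 999 to 451 and 530. In interferon-like cells they went from 823 and 346 to 272 and 14, in cell cycle cells from 2081 and 2125 to 1712 and 1681. Nuclear calls in arterial-like cells (21) became 7 with no block, 11 with thinned cells, 5 in healthy mice only, 13 in MI mice only and 14 to 23 with 1 mouse left out, and mt- calls (6) 3 with DESeq2, 0 with no block, 2 in MI mice only and 3 to 8. In venous-like cells nuclear calls (19) became 9 with DESeq2, 6 with no block and 11 to 19 with 1 mouse left out, and mt- calls (5) 0 with no block, 3 with thinned cells, 8 in MI mice only and 2 to 5. In Plvap-high cells nuclear calls (27) became 15 with DESeq2, 14 with no block, 6 with thinned cells and 12 to 22 with 1 mouse left out, and mt- calls (9) 4 with DESeq2, 0 with no block and 3 to 11. In sprouting-like cells nuclear calls (17) became 7 with DESeq2, with no block and with strict classes, 11 with thinned cells, 4 in healthy mice only and 10 to 14 with 1 mouse left out, and mt- calls (3) 0 with no block, with copied cells kept and with thinned cells, 7 with copied cells left out of both mice, 10 with strict classes, 11, all higher, in MI mice only against 2, both lower, in healthy mice only, and 1 to 7. In interferon-like cells nuclear calls (7) became 0 with no block, 3 with thinned cells, 1 in healthy mice only and 3 to 13 with 1 mouse left out, and mt- calls (4) 0 with DESeq2, with no block and in healthy mice only, 9 with copied cells kept and with strict classes, 7 with thinned cells, 1 in MI mice only and 1 to 11. In cells with cell cycle markers nuclear calls (32, 12 of them higher) became 13 with thinned cells, 0 of them higher, and 19 to 38 with 1 mouse left out, and mt- calls (11) 4 with no block and 2 with thinned cells. The arterial-like interaction for mt- genes (10) became 2 with thinned cells and 1 to 9 with 1 mouse left out.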
